A study of Mus musculus with 8 samples.

Results

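The genes of glucocorticoid action followed here in mouse liver were 10: the receptor gene Nr3c1, the hormone-regenerating enzyme gene Hsd11b1, and the hormone-induced genes Fkbp5, Tsc22d3, Zbtb16, Klf9, Sgk1, Dusp1, Mt1 and Mt2. They were chosen by symbol, as the rows of the deposited FPKM table whose Ensembl identifiers carry these names, and are 10 of the 38283 genes listed. These genes and the lists read beside them were chosen with earlier results of these data known. Their counts beside the shares of all genes are therefore a description only. All 10 were among the 11634 genes with an FPKM above 1 in at least 1 library, which were the genes tested. The study compared livers with and without the nuclear receptor RORα on a control diet (CD) and a high-fat diet (HFD), in C57BL/6 male mice that entered their diet at 8 weeks of age and stayed on it for 10 weeks. RORα f/f mice carry floxed alleles. RORα LKO mice carry the same floxed alleles with Alb-cre, in which the albumin promoter drives Cre in hepatocytes. The 4 groups (f/f on CD, LKO on CD, f/f on HFD and LKO on HFD) had 2 polyA RNA libraries each, made from RNA of 2 pooled animals per library.

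Glucocorticoids enter the hepatocyte and bind the receptor, which sits in the cytoplasm in a complex with heat shock proteins and FKBP-type chaperones until hormone releases it to the nucleus. There it binds DNA at glucocorticoid response elements, and in the liver it induces genes of glucose production and amino acid breakdown as well as genes that limit its own action. Many of these targets are also under insulin, cAMP, metal or circadian control, so that none of them is a gauge of the hormone alone. The metallothioneins Mt1 and Mt2, small cysteine-rich proteins that bind zinc and copper, respond to metal through the factor MTF1 as well as to glucocorticoid.

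The upstream bases of a few members show which elements lie close to a start site. RefSeq windows on GRCm38.p6 were at hand for 8 of the 10 members (15 windows, since a gene may have several starts), and the 250 bases before each start were searched on both strands. The full glucocorticoid response element (the hexamer AGAACA, 3 bases of any kind and the hexamer TGTTCT) occurred in 1 of these windows, at an alternative start of Sgk1, and in 3 of 32851 windows of all genes (0.00913%). Its left hexamer AGAACA alone occurred in 16.1% of all windows. The core of the metal response element (TGCGCNC or TGCACNC) occurred in 21.4% of all windows, with 3 matches before the Mt2 start and 1 each before the Mt1 and Hsd11b1 starts. All 250 bases of the Hsd11b1 window, its match included, lie in annotated UTRs. The cAMP response element TGACGTCA, present in 1.55% of all windows, was found before Dusp1. No member window held the RORα element ANTAGGTCA or ANTGGGTCA, which 1.21% of all windows held. In the 4 sequences printed here, each 5′ to 3′ on the strand of the gene and ending at the start site or where an annotated UTR begins, capitals mark the glucocorticoid element in Sgk1 (chr10:21993640-21993889, plus strand), the cAMP element in Dusp1 (chr17:26508520-26508722, minus strand), and the metal elements in Mt1 (chr8:94178839-94179081, plus strand) and Mt2 (chr8:94172368-94172617, plus strand). The Dusp1 window was chosen after the values were seen. A match is a run of letters and was not tested as a bound site.
Sgk1: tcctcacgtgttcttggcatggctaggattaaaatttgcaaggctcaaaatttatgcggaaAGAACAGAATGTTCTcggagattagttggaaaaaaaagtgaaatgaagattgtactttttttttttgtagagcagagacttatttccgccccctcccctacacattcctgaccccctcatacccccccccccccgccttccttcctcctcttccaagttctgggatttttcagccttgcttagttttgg
Dusp1: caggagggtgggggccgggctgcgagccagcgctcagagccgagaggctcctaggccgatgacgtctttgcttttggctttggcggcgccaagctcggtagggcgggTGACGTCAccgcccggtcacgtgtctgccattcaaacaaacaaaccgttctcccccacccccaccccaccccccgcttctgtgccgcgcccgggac
Mt1: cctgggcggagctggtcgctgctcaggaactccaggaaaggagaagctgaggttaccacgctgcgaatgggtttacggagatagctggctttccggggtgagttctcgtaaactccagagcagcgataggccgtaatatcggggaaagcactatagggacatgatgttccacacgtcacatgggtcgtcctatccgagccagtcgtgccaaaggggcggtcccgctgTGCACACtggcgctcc
Mt2: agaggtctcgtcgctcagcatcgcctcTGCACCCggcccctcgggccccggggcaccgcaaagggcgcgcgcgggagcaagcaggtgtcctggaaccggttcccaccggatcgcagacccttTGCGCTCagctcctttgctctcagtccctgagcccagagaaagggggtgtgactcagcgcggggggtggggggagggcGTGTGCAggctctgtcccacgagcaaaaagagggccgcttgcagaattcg

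The check of the labels came first. Rora itself, the deleted gene, was listed at 8.85 and 8.59 FPKM in the f/f libraries on CD, 7.96 and 8.18 in the LKO libraries on CD, 7.56 and 7.86 in f/f on HFD, and 7.31 and 8.02 in LKO on HFD. The genotypes did not overlap on CD and overlapped on HFD, and neither log2 difference passed the test (−0.10 ± 0.07 SE on CD and 0.01 ± 0.07 on HFD, adjusted p = 0.613 and 0.974), the second turning negative under another scaling (−0.009 without quantile normalization). A gene-level FPKM covers all exons and does not resolve the floxed ones, so these values do not tell the labelled genotypes apart, and every direction given for LKO below is that of the libraries so labelled. The number of genes above 1 FPKM ranged from 10587 to 10706 over the libraries, and the read depth is unknown because the table holds no counts. Alb was listed at 0 in 4 of the 8 libraries while 4 other hepatocyte markers summed to between 9904 and 12330 FPKM in every library, so a 0 in this table can be a failed estimate. With 2 pools a group, p-values measure only the spread between pools. In whole liver, fewer cells of a type and less RNA per cell cannot be told apart.

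More of the glucocorticoid genes passed the test between the diets than between the genotypes, as did genes in general. Averaged over the genotypes, 4 of the 10 passed an adjusted p under 0.05 between HFD and CD, against 9.89% of all genes: Dusp1 fell, and Zbtb16, Klf9 and Hsd11b1 rose. After normalization the 4 HFD and 4 CD libraries did not overlap for 5 of the 10, these and Nr3c1, against 16.7% of all genes. Within RORα f/f livers 1 of 10 passed (Dusp1, lower; 1.33% of all genes), and within RORα LKO livers 2 of 10 passed (Dusp1, lower, and Zbtb16, higher; 3.02% of all genes). Between LKO and f/f, limma called 0 of 10 on CD (0.0172% of all genes), 0 of 10 on HFD (0.043%) and 0 of 10 averaged over the diets (0.103%). At an unadjusted p under 0.05 the genotype counts were 4 of 10 on CD (12.3% of all genes), 2 of 10 on HFD (9.58%) and 4 of 10 averaged (13.5%). No member passed in the test of whether the genotype difference itself differed between the diets (0.0344% of all genes passed), and 4 of 10 did so at an unadjusted p under 0.05 (8.35%). The median log2 difference over the members stayed near 0 throughout, at −0.07 and −0.03 for LKO against f/f on CD and HFD, and at 0.15 and 0.19 for HFD against CD in f/f and LKO, beside medians over all genes of −0.0009, −0.0007, 0.0107 and 0.0058. The members differed in direction, and each is described below by its role.

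**Figure D1:**
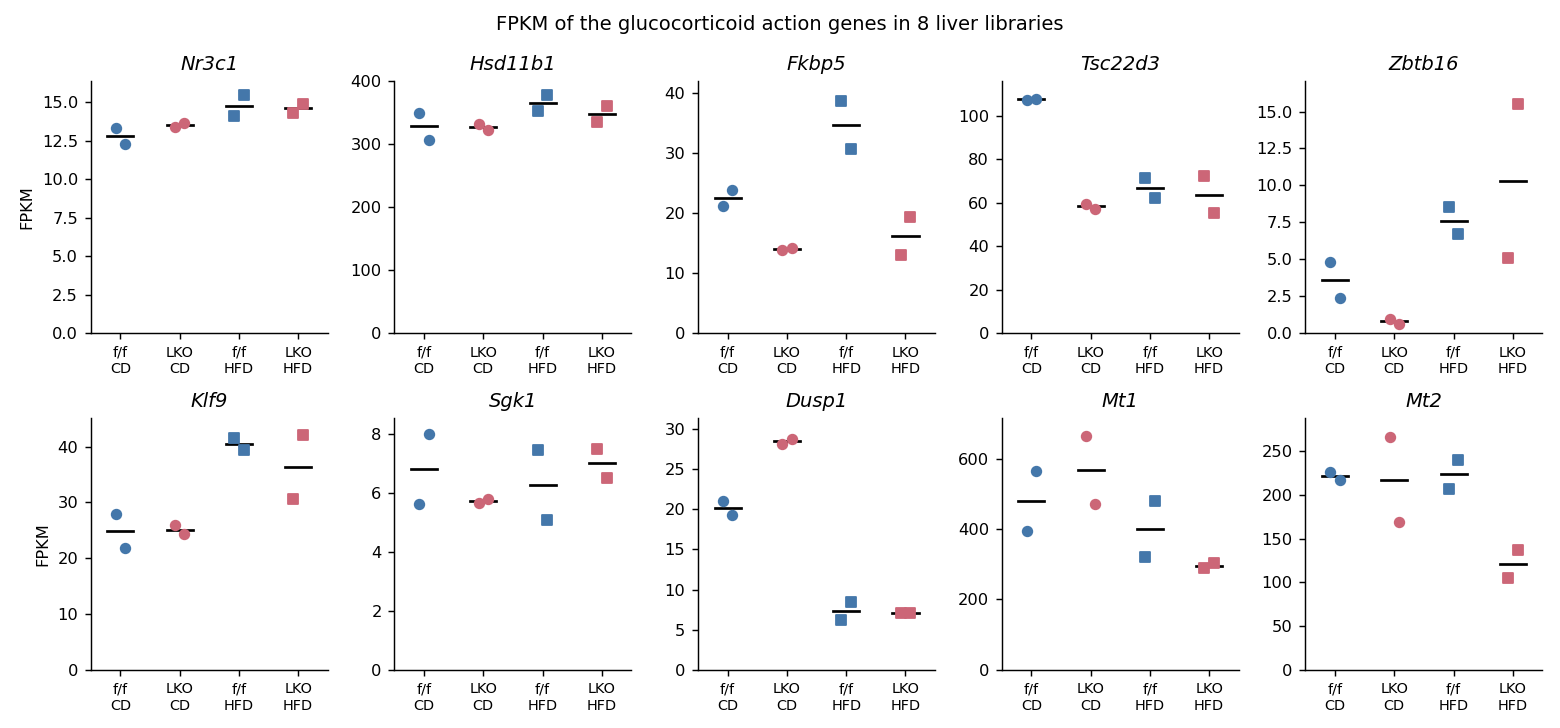
FPKM (y axis, from 0) of each of the 10 genes in the 8 libraries, by genotype and diet (x axis); points are libraries, blue for RORα f/f and red for RORα LKO, circles on CD and squares on HFD, and the bar is the mean of the 2. Fkbp5 is below the f/f libraries in every LKO library, Tsc22d3 is high only in the f/f libraries on CD (107.3 and 107.8), and Dusp1 lies below 9 in all 4 HFD libraries.

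The receptor and the supply of its hormone were nearly level. Nr3c1 was listed at 13.3 and 12.3 FPKM in f/f on CD, 13.4 and 13.6 in LKO on CD, 14.1 and 15.5 in f/f on HFD, and 14.3 and 14.9 in LKO on HFD. Every HFD library was above every CD library, by a log2 difference of 0.18 ± 0.05 averaged over the genotypes that did not pass (adjusted p = 0.0885). Its LKO minus f/f difference on HFD was 0.01, with a 95% interval from −0.17 to 0.19. Hsd11b1, whose product regenerates active glucocorticoid from its inert form inside the hepatocyte, was with Mt1 at the top of the members on the per-length FPKM scale. It was listed at 349.9 and 307.5 in f/f on CD, 332.1 and 322.1 in LKO on CD, 353.1 and 378.0 in f/f on HFD, and 335.2 and 361.3 in LKO on HFD. Its log2 difference between the diets, 0.26 ± 0.05 averaged over the genotypes, passed the test (adjusted p = 0.0279) although the FPKM of the 4 HFD and 4 CD libraries overlapped. That call rested on the scaling: the difference was 0.12 without quantile normalization (adjusted p = 0.254) and 0.15 with libraries centred on their medians (0.181). It was also lost without any 1 of 7 libraries (adjusted p from 0.0513 to 0.0969), and held only without f/f on CD replicate 1 (0.0398).

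Around the receptor, the 18 genes of its chaperone and coregulator complex gave no adjusted call between genotypes on either diet, nor any at an unadjusted p under 0.05, with medians of −0.04 on CD and −0.01 on HFD. Between the diets 1 of the 18 passed when averaged over the genotypes, against 9.89% of all genes in either direction. This was Hsp90aa1, the inducible heat shock protein that holds the receptor ready for hormone, which fell. It ran from 37.6 to 49.5 FPKM in the CD libraries and from 22.4 to 30.7 in the HFD libraries, a log2 difference of −0.69 ± 0.11 (adjusted p = 0.0142). The call was lost without LKO on CD replicate 2 (0.0504) or LKO on HFD replicate 1 (0.0615). Of 7 tested genes of steroid supply and clearance, 2 passed between the diets averaged over the genotypes, against the same 9.89% of all genes. Both fell: Cyp3a11, which hydroxylates steroids and drugs, and Srd5a1, which reduces the steroid ring for clearance. Cyp3a11 ran from 1033 to 1234 FPKM on CD, was 214.1 and 298.2 in f/f on HFD, and was 521.9 and 431.2 in LKO on HFD. Its averaged log2 difference of −1.53 ± 0.13 passed (adjusted p = 0.0036) and did so without any 1 library. On HFD the LKO libraries lay above the f/f libraries by 0.96 ± 0.19, which did not pass (0.228). Srd5a1 differed by −1.06 ± 0.16 (0.0142), a call lost without any 1 of 5 libraries (0.051 to 0.0648). H6pd, which supplies the NADPH that Hsd11b1 needs, was higher in LKO than in f/f libraries on both diets, without passing the test. On CD it was at 103.0 and 105.7 against 87.0 and 84.3 FPKM (0.27 ± 0.07, adjusted p = 0.262). On HFD it was at 76.6 and 89.1 against 74.0 and 74.1 (0.19 ± 0.07, 0.491).

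Fkbp5 encodes the co-chaperone that lowers the hormone affinity of the receptor and closes a feedback loop, and lies at chr17:28399094-28517527 (GRCm38). Its FPKM was 21.2 and 23.8 in f/f on CD, 13.8 and 14.2 in LKO on CD, 38.8 and 30.8 in f/f on HFD, and 13.1 and 19.3 in LKO on HFD. All 4 LKO libraries were below all 4 f/f libraries, which held for 1 of the 10 members and for 4.84% of all genes in either direction. The log2 difference was −0.62 ± 0.18 on CD (adjusted p = 0.27), −1.05 ± 0.18 on HFD (0.163), and −0.83 ± 0.13 averaged over the diets, 95% interval −1.13 to −0.53, which missed the threshold (0.0826). It passed when only genes above 1 FPKM in all 8 libraries were tested (0.0383) or without LKO on HFD replicate 2 (0.0459), and the size ran from −0.96 to −0.71 over all left-out libraries. The difference did not itself differ between the diets beyond its error (−0.43, 95% interval −1.02 to 0.17, adjusted p = 0.677). On HFD Fkbp5 was 1.54-fold the CD level in f/f livers (adjusted p = 0.136), and overlapped between the diets in LKO livers (1.16-fold, 0.579).

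Tsc22d3, also called GILZ, is a leucine zipper protein that carries part of the anti-inflammatory action of glucocorticoids and lies at chrX:140539528-140600659. Its FPKM was 107.3 and 107.8 in f/f on CD, 59.5 and 57.1 in LKO on CD, 71.3 and 62.0 in f/f on HFD, and 72.1 and 55.4 in LKO on HFD. The f/f libraries on CD stood above the other 6, and the LKO libraries on HFD spanned the values of both other groups. LKO was 1.85-fold below f/f on CD (log2 difference −0.87 ± 0.14, adjusted p = 0.154) and the genotypes overlapped on HFD (−0.04 ± 0.14, 95% interval −0.37 to 0.29). The difference between these differences was 0.83 ± 0.20, 95% interval 0.37 to 1.29, and did not pass over all genes (adjusted p = 0.517). In f/f livers HFD was below CD by −0.64 ± 0.14 (0.0788), which passed with genes above 1 FPKM in all 8 libraries (0.0471). The CD genotype comparison and the f/f diet comparison share the f/f CD libraries, so they are not separate evidence.

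Zbtb16 encodes PLZF, a zinc finger repressor that glucocorticoid induces strongly in many cells, and lies at chr9:48654297-48836222. It had the lowest FPKM of the members on CD and the largest standard errors: 4.81 and 2.35 FPKM in f/f on CD, 0.92 and 0.64 in LKO on CD, 8.50 and 6.73 in f/f on HFD, and 5.08 and 15.5 in LKO on HFD. The LKO libraries on CD were the lowest of the 8, and the 2 LKO libraries on HFD lay on either side of both f/f libraries on HFD. Within LKO livers HFD was 13.2-fold CD in mean FPKM, and 2.53 ± 0.46 on the log2(FPKM + 1) scale, which passed (adjusted p = 0.0419). The call was lost without any 1 of 7 libraries (0.0717 to 0.188) and held without LKO on HFD replicate 1 (0.0401), while without LKO on HFD replicate 2, the 15.5 FPKM library, the difference was 1.81 (0.12). With the replicate numbers as a block it was not called (0.0724). Averaged over the genotypes the diet difference was 1.75 ± 0.32 (0.0231), lost without f/f on CD replicate 2, either LKO library on CD, or either f/f library on HFD (0.0589 to 0.0849). The LKO minus f/f difference was −1.32 ± 0.46 on CD (0.329) and 0.23 ± 0.46 on HFD (0.91), and the gap between these, 1.56 ± 0.65, did not pass (0.594).

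Klf9, a Krüppel-like factor that glucocorticoid and thyroid hormone both induce, lies at chr19:23141226-23168134. It was listed at 27.8 and 21.9 FPKM in f/f on CD, 26.0 and 24.2 in LKO on CD, 41.6 and 39.3 in f/f on HFD, and 30.6 and 42.0 in LKO on HFD. All HFD libraries were above all CD libraries, and the averaged log2 difference of 0.62 ± 0.11 passed (adjusted p = 0.0186). It was lost without f/f on CD replicate 2, LKO on CD replicate 2 or either f/f library on HFD (0.0605 to 0.0733). The genotypes overlapped on both diets, by 0.05 on CD (95% interval −0.31 to 0.41) and −0.15 on HFD (−0.51 to 0.20). Sgk1, a serum- and glucocorticoid-induced kinase and the gene with the full response element shown above, was listed between 5.10 and 8.00 FPKM in all 8 libraries. Its values were 5.63 and 8.00 in f/f on CD, 5.66 and 5.79 in LKO on CD, 7.47 and 5.10 in f/f on HFD, and 7.51 and 6.52 in LKO on HFD, and no comparison passed at an unadjusted p under 0.05. Its 95% intervals reached from −0.65 to 0.26 for LKO against f/f on CD and from −0.28 to 0.62 on HFD, so changes of that size cannot be told from the spread.

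Dusp1 encodes the phosphatase that switches off MAP kinases and lies at chr17:26505590-26562128. It is induced by glucocorticoid, but also within minutes by cAMP and stress signals, as an immediate early gene. Its FPKM was 21.0 and 19.3 in f/f on CD, 28.2 and 28.8 in LKO on CD, 6.24 and 8.48 in f/f on HFD, and 7.10 and 7.02 in LKO on HFD. All HFD libraries were below all CD libraries, and the averaged fall of −1.58 ± 0.09 on the log2 scale passed in every left-out fit (adjusted p = 0.000805; 0.00031 to 0.00784 without 1 library). Within LKO livers the fall was 4.03-fold (log2 difference −1.84 ± 0.13, 0.00681) and passed without any 1 library (0.00642 to 0.0434). Within f/f livers it was 2.73-fold (−1.32 ± 0.13, 0.0197) and lost its call without either f/f library on CD (0.0851 and 0.112), LKO on CD replicate 2 (0.0539) or either LKO library on HFD (0.0561 and 0.0593). On CD the LKO libraries were above the f/f libraries by 0.50 ± 0.13, which did not pass (0.242). A second annotated gene, Ergic1, overlaps the Dusp1 span on the other strand at 25.6 to 31.6 FPKM, and the library kit does not mark strand.

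Other immediate early genes were read beside Dusp1. Of 16 listed, 11 were tested, and 2 passed between the diets averaged over the genotypes, against 9.89% of all genes in either direction. Both fell with HFD (Btg2 and Nr4a1). Nr4a1, an orphan nuclear receptor induced by cAMP, was at 0.84 and 0.92 FPKM in f/f on CD, 2.89 and 3.20 in LKO on CD, and 0.24 to 0.40 in the 4 HFD libraries. Its averaged log2 difference was −1.07 ± 0.10 (adjusted p = 0.0036), and that between LKO and f/f on CD was 1.07 ± 0.14 (0.0888). For Dusp1 and Nr4a1 alike LKO on CD was highest, f/f on CD next, and the genotypes overlapped on HFD. Other genes of the list differed. Zfp36 was lower in LKO than in f/f on CD (−0.34 ± 0.07, adjusted p = 0.196), and Ier2 was higher with HFD in f/f livers (0.59 ± 0.24, 0.242). For LKO against f/f on CD, 6 of the 11 were above 0 and 5 below. How far the time or manner of tissue collection moved with these genes was not tested, because the labels give neither.

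Mt1 and Mt2 lie beside each other on chromosome 8 (Mt2 at 94172664-94173568 and Mt1 at 94179082-94180327), and their RefSeq starts, those of the windows shown above, are 6471 bases apart. Mt1 had the highest mean FPKM of the members in 3 of the 4 groups: 395.2 and 564.7 FPKM in f/f on CD, 664.4 and 471.9 in LKO on CD, 320.7 and 480.2 in f/f on HFD, and 289.7 and 302.6 in LKO on HFD. Mt2 was at 226.7 and 216.6, 266.6 and 168.6, 206.5 and 240.5, and 105.4 and 136.6 FPKM in the same order. For both genes the 2 LKO libraries on HFD were the lowest of the 8. LKO was below f/f on HFD by −0.87 ± 0.21 for Mt2, 1.85-fold in mean FPKM (adjusted p = 0.281), and by −0.40 ± 0.23 for Mt1 (0.635). HFD was below CD in LKO livers by −0.71 ± 0.21 for Mt2 (0.121) and −0.72 ± 0.23 for Mt1 (0.142). None of these passed. On CD both genes overlapped between genotypes, with 95% intervals of −0.58 to 0.42 for Mt2 and −0.36 to 0.73 for Mt1. The difference between the diets of the genotype difference was −0.79 ± 0.30 for Mt2 (0.576) and −0.59 ± 0.32 for Mt1 (0.662). An antisense gene, Gm45774, covers the Mt2 start in the annotation and is not analysed here, and fragments from it and from Mt2 cannot be told apart without strand. The pair are close paralogs, and how shared fragments were divided is not given in the sources used here.

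Of 11 further metal genes 8 were tested, and Mt3 and Mt4 were listed at 0 in every library. Slc39a4, a zinc importer, fell with HFD in LKO livers from 22.9 and 29.7 to 9.76 and 9.86 FPKM (log2 difference −1.30 ± 0.16, adjusted p = 0.0194), a call lost without any 1 of 5 libraries (0.0507 to 0.112). In f/f livers it was 20.7 and 19.5 on CD and 9.30 and 12.9 on HFD, and averaged over the genotypes the fall of −1.05 ± 0.12 (0.00612) held without any 1 library. Slc39a14, a zinc importer of the hepatocyte, was at 57.5 and 63.5 FPKM in LKO on HFD and 73.1 and 83.3 in f/f on HFD (−0.33 ± 0.11, 0.424). Slc30a1, the zinc exporter that MTF1 induces, was at 13.9 and 12.9 in LKO on CD and 10.7 and 10.6 in f/f on CD (0.34 ± 0.10, 0.286). No metal gene passed between the genotypes on either diet.

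**Figure D2:**
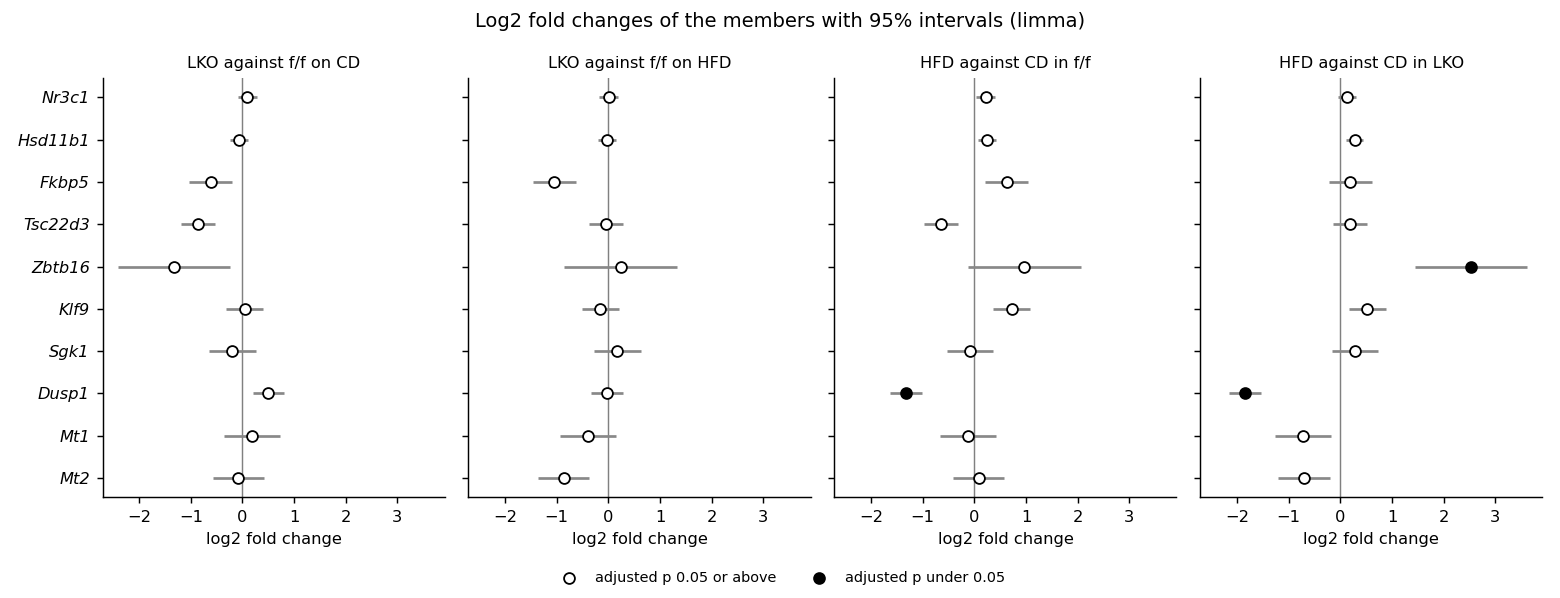
Log2 fold changes (x axis, on the log2(FPKM + 1) scale) of the 10 genes in 4 comparisons, with 95% intervals from limma; filled points have an adjusted p under 0.05. The filled points are Dusp1 in both diet panels and Zbtb16 in the LKO diet panel, and the Fkbp5 interval lies below 0 in both genotype panels.

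A wider list of 30 genes that glucocorticoid induces in liver or widely, of which 29 were tested, was read beside the members. For LKO against f/f on CD, 25 of the 29 had a log2 difference below 0, with a median of −0.26, beside a median of −0.0009 over all genes and 5842 of 11634 genes below 0. On CD 1 of the 29 fell by the adjusted test. At an unadjusted p under 0.05, 9 of the 29 were lower and 1 higher, against 6.12% and 6.15% of all genes. On HFD 17 of the 29 were below 0, with a median of −0.08, and 1 fell by the adjusted test. The gene called on both diets was Lpin1, the phosphatidate phosphatase and PGC-1α partner that glucocorticoid induces in fasting. It was listed at 68.5 and 77.3 FPKM in f/f on CD, 17.5 and 18.8 in LKO on CD, 68.8 and 77.4 in f/f on HFD, and 27.6 and 34.2 in LKO on HFD. The fall was 4.02-fold on CD (log2 difference −1.91 ± 0.12, adjusted p = 0.00631), kept without any 1 library (0.0187 to 0.0331). On HFD it was 2.37-fold (−1.22 ± 0.12, 0.0457), a call lost without any 1 of 7 libraries (0.0783 to 0.157) and held without LKO on HFD replicate 2 (0.0311). In a limma fit of the 4 compared libraries alone, both Lpin1 calls were lost (adjusted p = 0.184 on CD and 0.428 on HFD). The Lpin1 call on HFD was also lost without quantile normalization (0.0512) and without the variance trend (0.0934). Ddit4, an inhibitor of mTORC1, was at 4.02 and 3.34 in LKO on CD against 10.7 and 8.22 in f/f on CD, without passing (−1.16 ± 0.24, 0.196). Tat, the tyrosine aminotransferase long used as the model glucocorticoid target, was at 480.4 and 586.0 against 876.5 and 1036 (−0.74 ± 0.18, 0.223). Lcn2, an acute phase protein, went the other way, at 56.2 and 33.7 against 21.9 and 11.1 (1.44 ± 0.53, 0.349).

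Diet moved the same list in both directions. Averaged over the genotypes 10 of the 29 fell and 3 rose, against 9.89% of all genes called in either direction, with a median of −0.28, beside 0.0109 over all genes. G6pc, glucose-6-phosphatase, was at 246.2 and 297.9 FPKM in f/f and 262.1 and 296.9 in LKO on CD, and between 53.1 and 73.8 in the HFD libraries. It fell 4.83-fold in f/f livers (adjusted p = 0.00235) and 4.12-fold in LKO livers (0.00681), and both calls held without any 1 library. Both were lost in a fit of the 4 compared libraries alone (0.0843 in f/f and 0.11 in LKO). Got1, the cytosolic aspartate aminotransferase, fell by −1.48 ± 0.13 averaged over the genotypes (0.0036) and Tat by −1.14 ± 0.12 (0.00606), both without any 1 library. Pck1, the gluconeogenic kinase, fell by −0.67 ± 0.16 (0.0479), a call lost without any 1 of 7 libraries (0.0678 to 0.146), and Igfbp1 by −1.93 ± 0.39 (0.03), lost without any 1 of 6 (0.0675 to 0.103). The 3 that rose on average were Cdkn1a, the p21 cell cycle inhibitor, Lpin1, and Pik3r1, the regulatory subunit of PI3 kinase. In f/f livers 0 of the 29 rose by the adjusted test. There mean FPKM on CD and HFD was 2.13 and 2.20 for Cdkn1a, 72.9 and 73.1 for Lpin1, and 16.0 and 21.5 for Pik3r1. In LKO livers all 3 were called, at 5.49-fold for Cdkn1a (adjusted p = 0.0185), 1.70-fold for Lpin1 (0.0301) and 1.79-fold for Pik3r1 (0.0152). Each of these 3 calls was lost without at least 1 library, up to an adjusted p of 0.0992, 0.127 and 0.071.

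**Figure D3:**
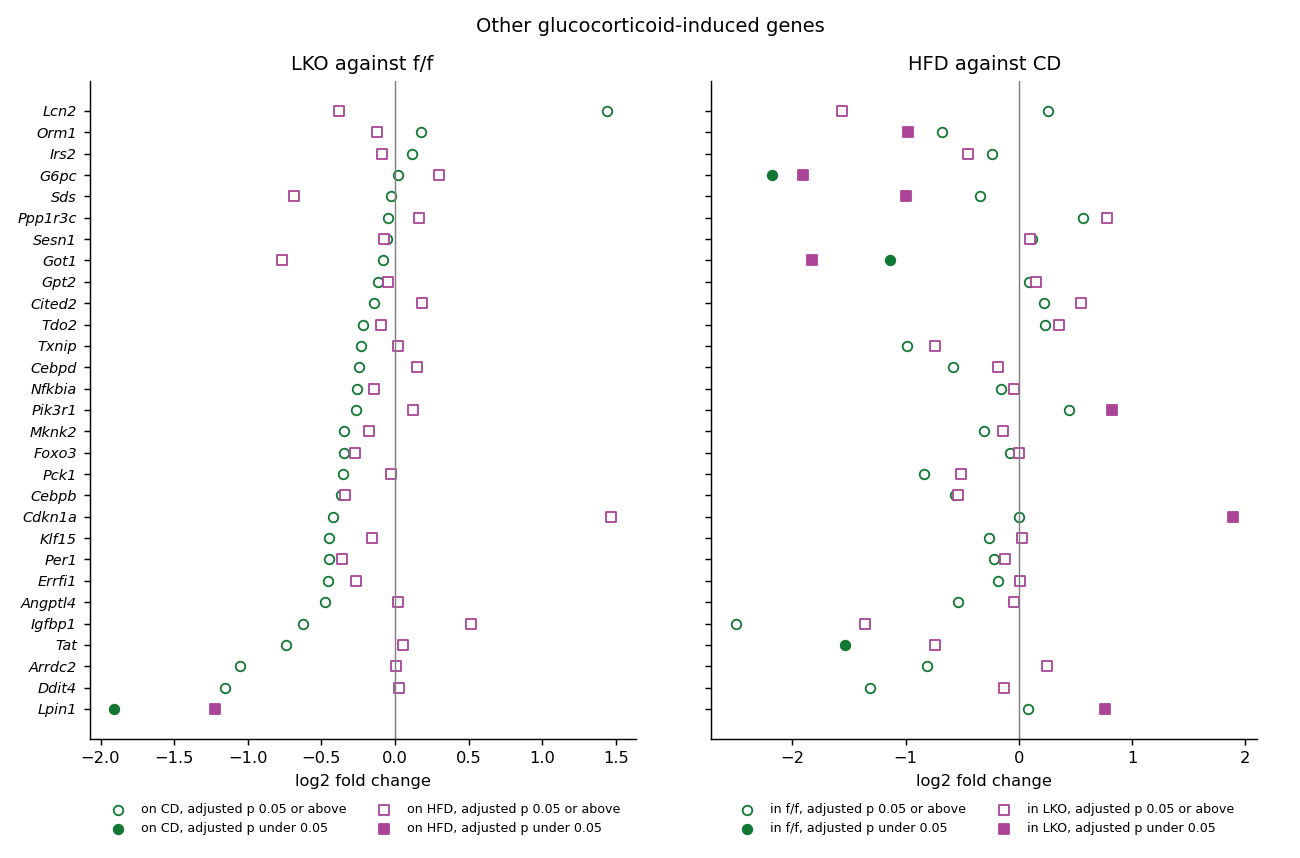
Log2 fold changes (x axis, on the log2(FPKM + 1) scale) of 29 other glucocorticoid-induced genes (y axis, ordered by the LKO against f/f difference on CD), for genotype on each diet (left) and diet in each genotype (right); filled symbols have an adjusted p under 0.05. Most green circles on the left lie below 0, Lpin1 is the filled symbol on both diets, and G6pc and Got1 are filled in both genotypes on the right.

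Fkbp5 was compared with all 9838 genes above 1 FPKM in every library for likeness of pattern over the 8 libraries. The 5 most alike by Pearson's r were Rdh16f2 (0.966), Cggbp1 (0.962), Dbp (0.958), 2610002M06Rik (0.953) and Eef1e1 (0.945), given as a description with no test, since the libraries share genotype, diet and pooling. Rdh16f2, of the retinol dehydrogenase family, was at 62.6 and 60.9 FPKM in f/f on CD, 45.0 and 44.6 in LKO on CD, 80.3 and 78.2 in f/f on HFD, and 48.4 and 57.6 in LKO on HFD. Dbp, a clock-controlled transcription factor of the hepatocyte with a strong daily rhythm, was at 45.0 and 40.5, 28.9 and 36.8, 72.3 and 58.5, and 28.5 and 36.2 FPKM in the same order. Its mean in LKO was 32.4 against 65.4 in f/f on HFD (adjusted p = 0.144) and 32.8 against 42.7 on CD (0.412). Other clock genes were read beside it. Of 15 tested, 9 were lower and 1 higher in LKO on HFD at an unadjusted p under 0.05 (4.12% and 5.46% of all genes), 0 passed the adjusted limma test, and the median was −0.50. On CD 3 were lower and 1 higher (6.12% and 6.15% of all genes). Ciart, a clock repressor, was at 17.8 and 14.3 in f/f on CD, 8.82 and 10.5 in LKO on CD, 25.9 and 20.4 in f/f on HFD, and 11.9 and 13.4 in LKO on HFD. Nr1d1, the clock repressor REV-ERBα, overlapped between the genotypes on HFD and rose with HFD by 1.20 ± 0.10 averaged over the genotypes (0.00358), a call that held without any 1 library. The part of clock phase in the Fkbp5 difference was not tested, and no label gives an hour of collection.

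**Figure D4:**
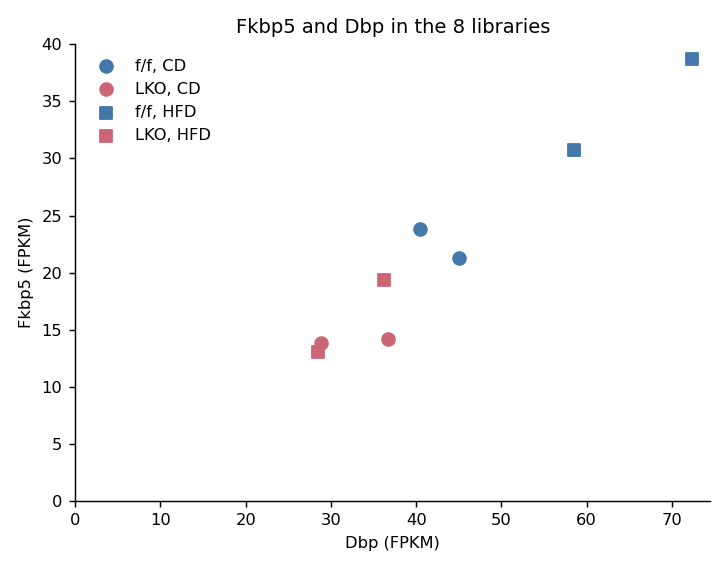
Fkbp5 FPKM (y axis) against Dbp FPKM (x axis) in the 8 libraries, both axes from 0; blue is RORα f/f, red RORα LKO, circles CD and squares HFD. The 4 LKO libraries sit at the lower left (Fkbp5 13.1 to 19.3) and the f/f libraries on HFD at the upper right (30.8 and 38.8).

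Markers of other liver cells were read beside these values. Kupffer cell and leukocyte markers (7 genes) summed to between 63.2 and 78.6 FPKM on CD, to 56.5 and 47.6 in f/f on HFD and to 83.1 and 56.7 in LKO on HFD. Of the 5 tested, 2 differed between the genotypes on HFD at an unadjusted p under 0.05 (9.58% of all genes), and 0 passed the adjusted test. Stellate cell markers (5 genes) summed to between 11.0 and 13.6 on CD and 15.8 and 20.7 on HFD, of which Reln made up 6.38 to 9.15 and 10.1 to 14.4. The means of Lrat and Des were also higher on HFD in both genotypes. Mean Col1a1 was lower on HFD (0.789 to 0.633 in f/f and 1.04 to 0.853 in LKO). Mean Acta2 was lower on HFD in LKO (0.958 to 0.474) and higher in f/f (1.00 to 1.30). Endothelial markers (4 genes) summed to between 15.1 and 23.1 and cholangiocyte markers (3 genes) to between 0.866 and 1.40 over all libraries. The 4 adipocyte markers summed to 5.47 and 5.31 in LKO on HFD and to 0.942 and 2.09 in f/f on HFD, of which Cfd made up 5.45 and 5.29 in LKO and 0.488 and 1.88 in f/f, while Adipoq, Plin1 and Lep were each below 0.4 FPKM or at 0 in every library. The part of these cells in the differences of Fkbp5, Zbtb16, Mt1 and Mt2 was not tested.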

How the data were processed

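Liver polyA RNA was sequenced as 8 libraries from TruSeq kits. Per the labels and methods, the authors trimmed reads with cutadapt 1.0, aligned them to GRCm38 with TopHat2 2.0.7 and deposited Cufflinks FPKM per Ensembl gene (fragments per length and library size), with no counts, so depth is unknown. Low FPKM values came in steps that put the relative depth of the libraries within 1.41-fold. Symbols were matched for 36341 of 38283 identifiers. Here FPKM was turned to log2(FPKM + 1), filtered to genes above 1 FPKM in at least 1 library (11634), quantile normalized and fitted with limma 3.58.1 (R 4.3.3; 1 fit of 4 groups, trended variance, Benjamini-Hochberg adjustment). Fold changes on this scale understate low genes. Means of FPKM give the folds. The permutation test in the methods was not rerun. On simulated data with 200 of 11634 genes changed between LKO and f/f on HFD, 91% of changes of 1 log2 unit and 98% of 2 were recovered, with 12 false calls of 201. The changed genes were drawn from those with a mean above 2 on the log2 scale, and all values from independent normal distributions. The real comparison called 5 genes, and these rates do not give its power. Named genes were all members, listed genes passing an adjusted p, up to 3 per list and comparison with the largest change among those with an unadjusted p under 0.05 and no overlap of libraries, and the 5 genes most like Fkbp5. The members and lists were chosen with earlier results of these data known. Alternatives were other scalings, filters, a pseudocount of 0.1, a replicate block, no trend, 4-library fits and each library left out.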

Additional observations from a re-analysis of the deposited data

Results flagged for a closer look

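Among the glucocorticoid genes and the lists read beside them, 3 had libraries that separated the genotypes in opposite directions on the 2 diets. Over all genes the libraries separated the genotypes, in either direction, for 5007 of 11634 on CD and 4912 on HFD. How many of all genes did so in opposite directions was not counted, so the 3 are a description only. Cdkn1a was lower in LKO than in f/f libraries on CD (1.75 and 1.04 against 2.24 and 2.03 FPKM) and higher on HFD (6.41 and 8.89 against 2.76 and 1.63). The gap between the differences was 1.88 ± 0.31 on the log2 scale, and the limma test of it did not pass (adjusted p = 0.354). Bhlhe40, a clock repressor, was higher in LKO on CD (60.9 and 53.1 against 52.4 and 30.9 FPKM) and lower on HFD (22.8 and 23.2 against 33.7 and 37.5), with a gap of −1.10 ± 0.30 (0.558). Crebbp, a coactivator of the receptor, was lower in LKO on CD (2.51 and 2.82 against 3.47 and 2.99 FPKM) and higher on HFD (2.63 and 2.58 against 2.57 and 2.41), with a gap of 0.26 ± 0.14 (0.662). No member of the 10 had this pattern.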

How the results depend on the processing

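With 2 pools a group, most calls within 1 genotype or diet were lost without at least 1 library. The number of the 10 genes called between the diets in f/f livers was 3 with genes above 1 FPKM in all 8 libraries (Dusp1, Klf9 and Tsc22d3) and 0 in a fit of the 4 libraries alone, and ran from 0 to 1 without 1 library. In LKO livers it was 1 with genes above 1 FPKM in all 8 libraries, where Zbtb16 was not tested, and 1 with genes above 0 in any library, with the replicate block and without the trend, 0 in the 4-library fit, and 1 to 2 without 1 library. Averaged over the genotypes it ran from 1 to 4 without 1 library. Between genotypes averaged over the diets it was 1 (Fkbp5) with genes above 1 FPKM in all 8 libraries and 0 to 1 without 1 library. Over all genes, the calls between the diets in f/f livers numbered 155, against 323 with genes above 1 FPKM in all 8 libraries, 46 with genes above 0 in any, 34 with the replicate block, 42 without the trend and 5 in the 4-library fit, and in LKO livers 351 against 570, 135, 223, 229 and 0. Same-numbered libraries correlated in their deviations from group means by −0.0037 to 0.149 over the pairs of groups, and by −0.0611 to 0.0351 without genes at 0, so with 2 numbers they share only a number. The cause of these moves was not tested.

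Differences close to 0 turned sign. For LKO against f/f on CD, Hsd11b1 was 0.002 with median centring, and without 1 library Hsd11b1 ran from −0.12 to 0.004, Mt1 from −0.082 to 0.45, Sgk1 from −0.41 to 0.017, Klf9 from −0.10 to 0.20 and Mt2 from −0.39 to 0.23. On HFD, without quantile normalization and with median centring, Nr3c1 was −0.015 and −0.008 and Rora −0.009 and −0.002. Without 1 library on HFD, Nr3c1 ran from −0.059 to 0.073, Rora from −0.032 to 0.060, Tsc22d3 from −0.24 to 0.16, Sgk1 from −0.055 to 0.40, Dusp1 from −0.23 to 0.18, Klf9 from −0.35 to 0.042 and Zbtb16 from −0.48 to 0.95. For HFD against CD in f/f, Sgk1 ran from −0.31 to 0.14, Mt1 from −0.40 to 0.13 and Mt2 from −0.041 to 0.21, and in LKO, Tsc22d3 from −0.015 to 0.39, Fkbp5 from −0.057 to 0.44 and Dbp from −0.15 to 0.17, with Dbp at −0.019 without quantile normalization.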
